A study of Mus musculus with 8 samples.

Results

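Cytosolic ribosomal proteins were followed in the lumbar intervertebral discs of mice with proteoglycan-induced spondylitis. They were taken by symbol: Rpl or Rps followed by a number, Rplp followed by a number, or Rpsa, each with at most 1 further letter, measured by a probe set that names that gene alone. The rule used no measured value and took 46 genes of 18193, which rested on 100 of the 34945 probe sets that name 1 gene. Of the 46, 22 carry a small-subunit symbol and 24 a large-subunit symbol, and they lie on 17 chromosomes. Rps4l is kept by the rule although RefSeq lists it as a transcribed pseudogene. A further 28 ribosomal protein symbols appeared only on probe sets that name several genes and were not taken.

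The immunized group was 5 female BALB/c mice given 100 µg of cartilage proteoglycan protein with 2 mg of the adjuvant DDA (dimethyldioctadecylammonium bromide) on days 0, 21 and 42. The naive group was 3 age-matched naive female BALB/c mice, whose age the labels do not give. Immunization of this strain with cartilage proteoglycan is a mouse model of inflammation of the spine and joints, and no group received the adjuvant alone, so adjuvant and antigen cannot be told apart. Each array carried the RNA of 6 lumbar discs pooled from a mouse. The descriptions of immunized replicate 1 and naive replicate 3 each join 2 sample numbers, so both may hold more than 1 mouse.

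Ribosomal proteins assemble with ribosomal RNA into the small subunit, which reads the messenger RNA, and the large subunit, which joins amino acids. Cells make them in balanced amounts, and their messages are among the most abundant in most tissues. Most of these messages start with a run of C and T bases, the terminal oligopyrimidine (TOP) tract, through which mTORC1 and the RNA-binding protein Larp1 control their translation. That control acts on translation, whereas an array measures the amount of message.

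The start sites of 8 members were chosen to set ordinary ribosomal protein genes (Rpl27a, Rps27, Rpl38, Rpl4, Rps6) beside 3 paralogs (Rps27l, Rpl39l, Rpl3l). Each line below gives RefSeq sequence of build GRCm38.p6 from 30 bases before an annotated transcript start to 25 bases from it on, 5′ to 3′ on the gene's strand. Capitals mark the longest run of C and T in the stretch shown.
Rpl27a, chr7:109519165-109519219, plus strand: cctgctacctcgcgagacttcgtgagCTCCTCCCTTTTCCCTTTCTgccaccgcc
Rps27, chr3:90213624-90213678, minus strand: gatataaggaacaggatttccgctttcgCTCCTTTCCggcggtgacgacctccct
Rpl38, chr11:114668550-114668604, plus strand: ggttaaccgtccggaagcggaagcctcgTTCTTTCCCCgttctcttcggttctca
Rpl4, chr9:64173357-64173411, plus strand: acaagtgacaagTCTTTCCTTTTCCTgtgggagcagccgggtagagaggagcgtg
Rps6, chr4:86857343-86857397, minus strand: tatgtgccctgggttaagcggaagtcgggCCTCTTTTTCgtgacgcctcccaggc
Rps27l, first listed start, chr9:66946056-66946110, plus strand: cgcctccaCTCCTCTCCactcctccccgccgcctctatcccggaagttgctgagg
Rpl39l, chr16:10170198-10170252, plus strand: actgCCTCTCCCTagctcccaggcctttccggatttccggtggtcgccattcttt
Rpl3l, first listed start, chr17:24727796-24727850, plus strand: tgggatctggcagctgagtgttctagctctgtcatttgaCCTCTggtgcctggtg

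In Rpl27a, Rps27, Rpl38 and Rps6 the run crosses the annotated start. In Rpl4, Rpl39l and Rps27l the longest run shown ends before the start used here. The annotated genes Rpl39l and Rps27l begin upstream of that run, at 10170197 and 66944624. Rpl38 begins upstream of the start used, at 114667818. In Rpl3l, a form of Rpl3 known from skeletal muscle and heart, the longest run shown is 5 bases long. Between 20 bases before and 50 bases after that start, Rpl3l has a run of 9. The table held a start site for 40 of the 46 genes, and those not matched were Rps29, Rps14, Rpl7, Rpl8, Rps4l and Rps20. A run of at least 7 pyrimidines was searched between 20 bases before and 50 bases after the start. It lay in 35 of the 40 genes, or 87.5%, against 41.3% of 17451 other coding genes. Counted by start site it lay in 38 of 48, or 79.2%, against 37.7% of all start sites. The letters CCGGAAG, on either strand of 300 bases around the start, were found in 20 of the 40 genes, or 50%. The share was 12.9% of the other coding genes. By start site they were found in 20 of 48, or 41.7%, against 8.86% of all start sites. On the reverse strand these letters can overlap a pyrimidine run. The palindromic CGCG element, searched as its exact 10 letters, was found in 5 genes, or 12.5%, against 0.728% of the other coding genes. By start site it was found in 6 of 48, or 12.5%, against 0.466% of all start sites. TATAAA was found in 5 genes, or 12.5%, against 14.8% of the other coding genes. Matching letters describe the sequence and do not show that a factor binds there.

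The deposited values are log2 RMA values from which each probe set's median over the 8 arrays had been taken away, so 0 is the middle array of that probe set and no value gives a level. RMA makes the distribution of values alike on every array, so a change shared by all messages cannot be seen. The absolute range of a probe set's lowest array could still be read from the spacing of the printed digits. It was 8 or more, on the log2 scale before centring, for 78 of the 100 member probe sets, 4 to 8 for 21 and below 4 for 1, whereas 32.5% of all probe sets were in the highest range and 10.8% in the lowest. In 14 of 15 measured cartilage marker genes at least 1 probe set was in the highest range, and the same held for all 12 skeletal muscle markers. Both cartilage markers and markers of other cells differed between the groups. All 15 cartilage differences were negative, and 6 of 15, or 40%, fell at an adjusted p under 0.05 (limma). Of 13 macrophage markers 6, or 46.2%, rose. Over all genes 4.68% fell and 4.46% rose.

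No ribosomal protein gene changed at an adjusted p under 0.05. The count was 0 of 46 with limma and Benjamini-Hochberg adjustment over 18193 genes, where 9.14% of all genes passed, 4.46% higher and 4.68% lower. The smallest adjusted p was 0.0801, for Rpl39l. Before adjustment 5 members, or 10.9%, had a p under 0.05, against 31.1% of all genes; Rpl27a, Rpl4 and Rps25 were on the higher side, which held 12.9% of all genes, and Rpl39l and Rps27 on the lower, which held 18.2%. At an adjusted p under 0.1, Rpl39l alone passed, against a background of 20.8%. Weighting arrays by quality, which changes many calls, gave 5 member calls among 32.4% of all genes.

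Differences between the groups were small for most members. The immunized minus naive difference ran from −0.62 to 0.27 on the log2 scale with a median of −0.024, beside −0.035 over all genes, and 17 of the 46 were positive and 29 negative. Its size was at most 0.25, a 1.19-fold difference, in 41 of 46 genes, or 89.1%, against 64.6% of all genes. The median size was 0.0816 for members and 0.171 for all genes. The 5 genes beyond that size, where 35.4% of all genes lay, were Rpl39l, Rps4l and Rps27 on the negative side and Rpl14 and Rpl4 on the positive side. Rpl39l and Rps4l exceeded 0.5, as did 12.2% of all genes.

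**Figure D1:**
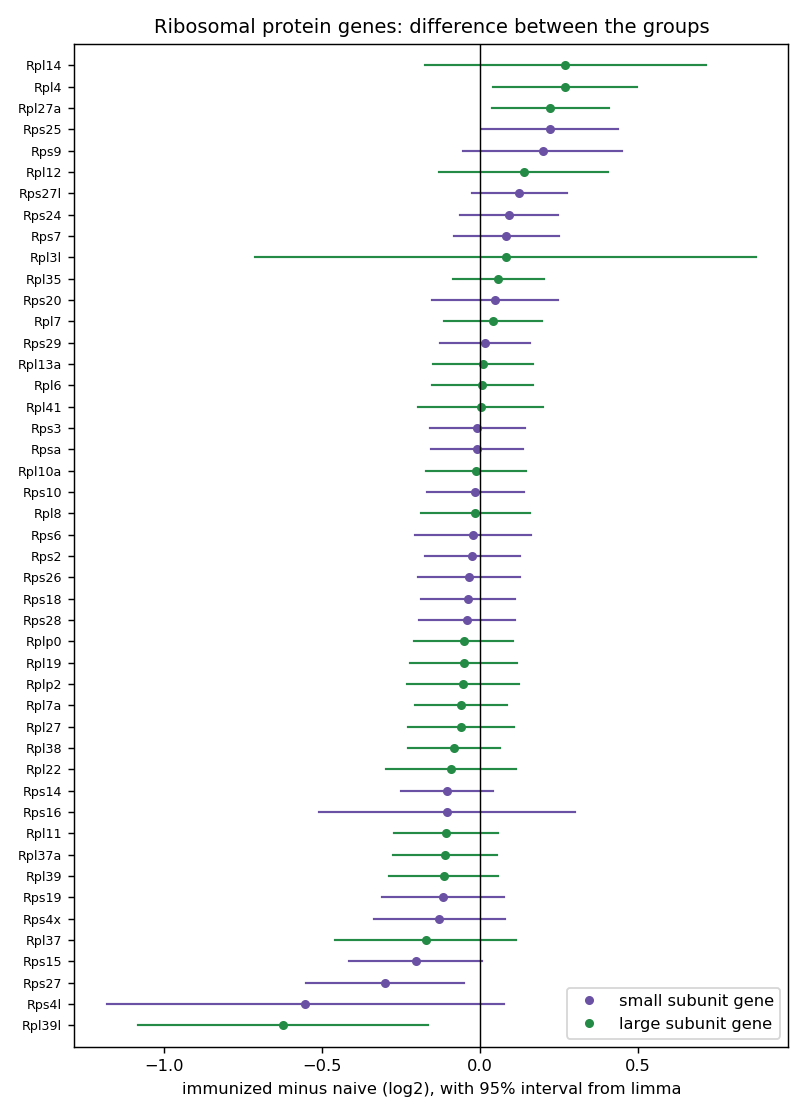
Difference between immunized (n = 5) and naive (n = 3) discs for each of the 46 ribosomal protein genes, as log2 immunized minus naive on the horizontal axis, with the 95% interval from limma as a line. Points are coloured by subunit; most lie within 0.25 of 0, and the longest intervals belong to Rpl3l and Rps4l.

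The intervals bound how large an undetected difference in the gene mean could be. A single probe set of a gene can lie outside them. The interval of Rps10 was −0.17 to 0.14, while its probe set 1436384_at differed by 0.50. The 95% interval lay within 0.25 of 0 for 26 of the 46 genes, within 0.5, or 1.41-fold, for 40, and within 1 for 44. Its half-width was 0.143 to 0.794, with a median of 0.169. A difference above 1.41-fold in the gene mean was therefore outside the interval for 40 of 46 members.

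The members also varied little from array to array, whatever the group. Their median SD over the 8 arrays was 0.0791, against 0.181 over all genes; 38 of 46 lay below that overall median and 27 lay in the lowest 10% of genes. Rps29, a small-subunit protein, had an SD of 0.0268, and 0.044% of all genes had a lower one. Other steady members were Rpsa at 0.0341, Rps3 at 0.0418, Rpl35 at 0.0425 and Rps18 at 0.0432. They are means of 2, 3, 6 and 6 probe sets with differences of opposite sign, so their SDs depend on the averaging. Over probe sets taken singly, the median SD was 0.0935 for members and 0.197 for all probe sets. Of the genes often used as a constant reference in expression work, Rplp0 had an SD of 0.0584 and Rpl13a one of 0.053, with 1.80% and 1.18% of all genes below them. Rplp0 rests on 1 probe set. Rpl13a is a mean of 4 with differences of opposite sign, −0.085 to 0.094, so its SD also depends on the averaging.

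**Figure D2:**
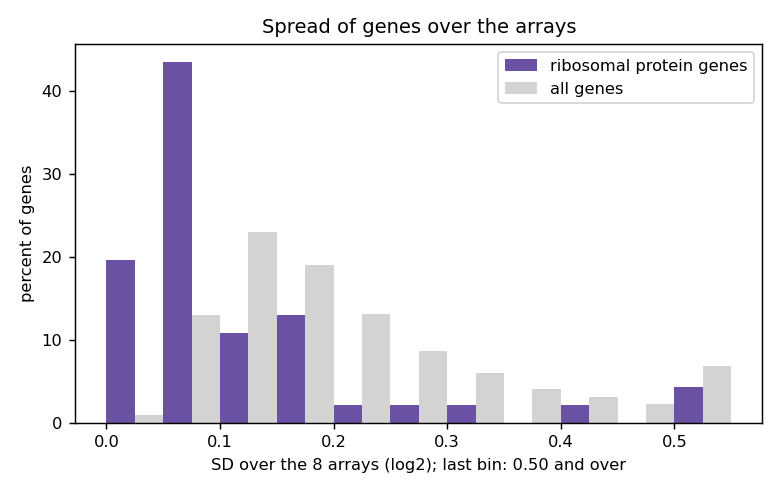
Percent of genes in each range of SD over the 8 arrays (log2, bins of 0.05, the last bin open), for the 46 ribosomal protein genes and for all 18193 genes. The ribosomal protein genes lie mostly under 0.10, below the bulk of all genes, and a few lie in the open bin.

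Genes of a high level were also compared among themselves. Of 4188 genes with every probe set in the range of 8 or more, 11.6% passed the test, their median difference was 0.208 in size and their median SD was 0.211. The 29 members of the same kind had 0 calls, a median size of 0.0814 and a median SD of 0.0732. Before adjustment 2 of the 29 had a p under 0.05, against 35.9% of the 4188 genes, and the groups did not overlap in 5 of the 29, against 26.1%. The range of 8 or more has no upper end, so members may lie higher within it than other genes, and the part of level in these values was not tested.

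Averaged over the 46 genes, the value was −0.0345, −0.0078, −0.022, −0.032 and −0.0116 in immunized discs, against 0.0134, 0.0033 and 0.0108 in naive discs. All 5 immunized means lay below the 3 naive means. The group means were −0.022 ± 0.012 (SD, n = 5) and 0.0091 ± 0.0052 (SD, n = 3), and no test was made of a score over members. The 46 include Rpl39l and Rps4l, whose differences of −0.62 and −0.55 were the largest, and the mean was not taken without them. Over the 78 member probe sets in the range of 8 or more, the groups overlapped. Their mean was −0.022, 0.006, 0.0099, −0.034 and −0.010 in immunized discs, against 0.004, −0.0038 and 0.020 in naive discs. Split by subunit the order was lost: the small-subunit mean was −0.0132, −0.0101, 0.0074, −0.0624 and −0.0362 in immunized discs, against 0.0515, −0.0189 and 0.023 in naive discs. The large-subunit mean was −0.0539, −0.0056, −0.049, −0.0041 and 0.0111 in immunized discs, against −0.0216, 0.0236 and −0.0005 in naive discs. In both subunits the groups overlapped.

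Within an array, members spread by an SD of 0.133, 0.125, 0.223, 0.101 and 0.203 in immunized discs, against 0.205, 0.143 and 0.138 in naive discs. The same measure over all genes was 0.18 to 0.311 in immunized discs and 0.28 to 0.359 in naive discs, so members spread less than genes at large on every array. Naive replicate 1 held the highest value of 14 members and the lowest of 7, 21 extremes in all.

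**Figure D3:**
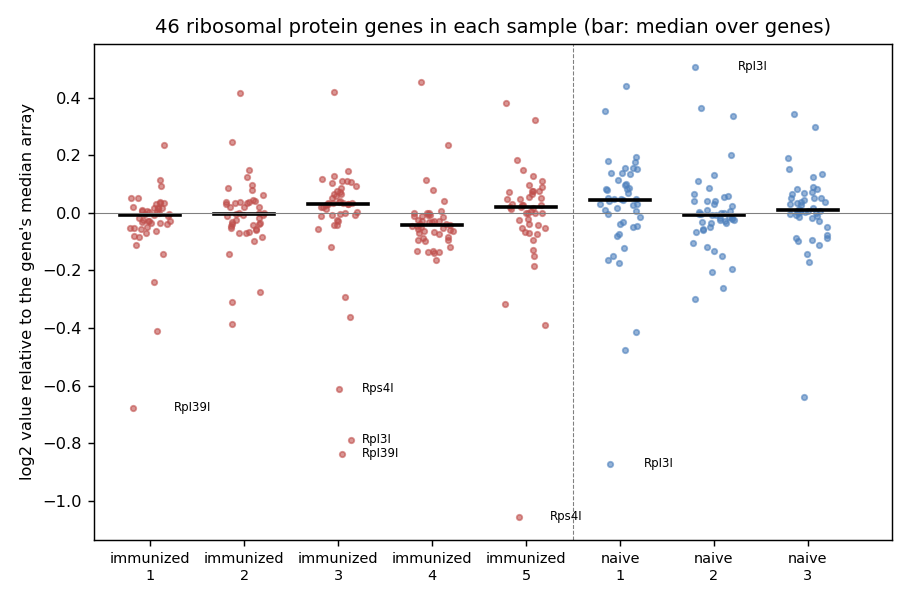
Value of each of the 46 ribosomal protein genes (points) on each array, immunized replicates 1 to 5 on the left and naive replicates 1 to 3 on the right, as log2 relative to the gene's own median array; bars are medians over genes. The medians stay near 0 on every array, and most of the points far from 0 belong to Rpl39l, Rps4l and Rpl3l.

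Groups that did not overlap were found in 9 of the 46 members, or 19.6%, against 23.4% of all genes. Rpl4, Rpl27a, Rps24 and Rps27l lay above all naive values in every immunized disc (9.39% of all genes), and Rpl39l, Rps27, Rps15, Rps14 and Rpl38 below all naive values (14.0% of all genes). For 5 of the 9 the p before adjustment was 0.05 or more. The share was no larger than among genes at large.

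Among small-subunit members, 22 in all, 0 passed the test, against 9.14% of all genes, and the median difference was −0.024. Of the 22, 2 lay above and 3 below the naive range, or 22.7%, against 23.4% of all genes. Rps27, a zinc-finger protein at the subunit's surface, lies at chromosome 3, 90212667 to 90213648. It had values of −0.085, 0.085, −0.29, −0.13 and −0.39 in immunized discs, against 0.19, 0.13 and 0.089 in naive discs. Immunized replicate 2, at 0.085, lay just under the lowest naive disc. The difference was −0.30 ± 0.11 (SE), adjusted p = 0.106, and without immunized replicate 2 it was −0.36 with an adjusted p of 0.0389, in a fit that called 16.5% of all genes.

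Rps15, a protein of the subunit's head near the decoding site (chromosome 10, 80292431 to 80294114), had −0.14, −0.0006, 0.0006, −0.13 and −0.32 in immunized discs, against 0.18, 0.022 and 0.051 in naive discs. Replicates 2 and 3 of the immunized group lay just under the naive range. The difference was −0.20 ± 0.093 (SE), adjusted p = 0.173. Rps14, which contacts the messenger RNA channel, had −0.053, −0.0079, −0.0037, −0.097 and −0.075 in immunized discs, against 0.082, 0.042 and 0.043 in naive discs. Its groups were apart by little: the difference was −0.10 ± 0.064, adjusted p = 0.306. The 6 measured proteins of the decoding site and mRNA channel had a median difference of −0.029 and 0 calls, against 9.14% of all genes.

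On the positive side, Rps25 had 0.23, 0.037, 0.13, −0.095 and 0.15 in immunized discs, against −0.037, −0.26 and −0.093 in naive discs. Rps25, a protein needed for translation from some viral internal entry sites, overlapped between the groups through immunized replicate 4. The difference was 0.22 ± 0.095 (SE), adjusted p = 0.152. Rps24, a gene mutated in Diamond-Blackfan anaemia in humans, had −0.018, 0.045, 0.036, −0.015 and 0.018 in immunized discs, against −0.17, −0.02 and −0.047 in naive discs. Its lowest immunized value and its highest naive value nearly touched, and the difference was 0.093 ± 0.069, adjusted p = 0.382.

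Rps6, the protein phosphorylated by S6 kinase below mTORC1, had −0.024, 0.039, −0.011, −0.16 and −0.052 in immunized discs, against −0.15, 0.055 and 0.035 in naive discs. The groups overlapped, and the difference was −0.023 ± 0.081 (SE), adjusted p = 0.872, with a sign that turned with the replicate block, without the joined samples and without some single discs. Rpsa, which is also known as a laminin receptor, had 0.017, −0.057, 0.03, −0.028 and 0.028 in immunized discs, against 0.0084, −0.026 and 0.037 in naive discs, a difference of −0.0087 ± 0.065, adjusted p = 0.939, whose sign also turned with array weights, centring and quantile normalization. Rps19, the gene first linked to Diamond-Blackfan anaemia in humans, had −0.081, 0.035, 0.072, −0.087 and −0.18 in immunized discs, against 0.15, −0.035 and 0.084 in naive discs. All 3 genes varied as much within a group as between the groups, Rps19 with a difference of −0.12 ± 0.085 and an adjusted p of 0.382. The 11 measured Diamond-Blackfan genes had 0 calls, against 9.14% of all genes, and a median difference of −0.033.

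Rps4x, the X-linked small-subunit protein, had 0.037, −0.036, 0.075, −0.026 and 0.0007 in immunized discs, against 0.35, −0.0039 and 0.068 in naive discs. Naive replicate 1 was high and the other discs of both groups lay together. The difference was −0.13 ± 0.092 (SE), adjusted p = 0.369, and its 2 probe sets gave −0.30 and 0.046. Rps16 had 0.0089, −0.31, 0.42, −0.13 and 0.0014 in immunized discs, against 0.44, −0.13 and −0.0014 in naive discs, a wide scatter in both groups. Its difference of −0.10 ± 0.18, adjusted p = 0.724, turned to 0.065 without naive replicate 1. Rps9, near the mRNA entry site, had a difference of 0.20 ± 0.11, adjusted p = 0.256.

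Among large-subunit members, 24 in all, 0 passed the test, against 9.14% of all genes, and the median difference was −0.033. Of the 24, 2 lay above and 2 below the naive range, or 16.7%, against 23.4% of all genes. Rpl27a, a core protein of the large subunit (chromosome 7, 109519195 to 109522369), has the long pyrimidine run shown above. It had 0.092, 0.0007, 0.019, 0.23 and 0.096 in immunized discs, against −0.031, −0.21 and −0.17 in naive discs. Every immunized disc lay above every naive one, and the difference was 0.22 ± 0.082 (SE), 95% interval 0.038 to 0.41, adjusted p = 0.107.

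Rpl4, which lines the tunnel through which the new protein leaves (chromosome 9, 64173387 to 64178562), had 0.0072, 0.097, 0.11, −0.0072 and 0.029 in immunized discs, against −0.48, −0.10 and −0.086 in naive discs. The groups did not overlap, but naive replicate 1 lay far below the other naive discs. The difference was 0.27 ± 0.10 (SE), adjusted p = 0.112, and without naive replicate 1 it was 0.14, adjusted p = 0.242. Rpl14 had the same size of difference, 0.27 ± 0.20, adjusted p = 0.378, which was 0.081 without naive replicate 3 and 0.48 without naive replicate 1, with values of 0.033, −0.38, 0.11, −0.033 and 0.32 in immunized discs, against 0.16, −0.30 and −0.64 in naive discs, which overlap widely. The 6 measured proteins of the peptide exit had a median difference of −0.066 and 0 calls, against 9.14% of all genes.

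Rpl38, a protein that mouse mutants tie to the patterning of the axial skeleton, had −0.037, 0.037, −0.043, −0.048 and −0.071 in immunized discs, against 0.053, 0.041 and 0.053 in naive discs. The groups were narrowly apart, and the difference was −0.082 ± 0.064 (SE), adjusted p = 0.414. Rpl11, which with Rpl5 and the smallest ribosomal RNA binds Mdm2 and so stabilizes p53, had −0.11, −0.0025, 0.021, −0.0097 and −0.13 in immunized discs, against 0.047, 0.0025 and 0.14 in naive discs. They overlapped, with a difference of −0.11 ± 0.073, adjusted p = 0.344. Rpl5 was measured here only by probe sets that name several genes.

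Rplp0, the base of the stalk that binds the elongation factors, had −0.0045, −0.099, 0.031, 0.0004 and 0.0063 in immunized discs, against 0.12, −0.0018 and −0.0004 in naive discs. Immunized replicate 2 was lower than the other immunized discs and naive replicate 1 higher than the other naive ones. The difference was −0.051 ± 0.069 (SE), 95% interval −0.21 to 0.11, adjusted p = 0.651. Rplp0 and Rplp2, the 2 stalk proteins measured, had a median difference of −0.052. Rpl37 and Rpl39, small proteins of the large subunit, had differences of −0.17 ± 0.126, adjusted p = 0.382, and −0.11 ± 0.076, adjusted p = 0.337. Without naive replicate 2 that of Rpl37 was −0.061, and without naive replicate 3 that of Rpl39 was −0.063.

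The 4 paralogs that are tissue-restricted, stress-induced or a pseudogene held both of the largest differences. They had 0 calls, against 9.14% of all genes, and a median of −0.24. Rpl39l, a relative of Rpl39 best known from the testis (chromosome 16, 10170197 to 10174911), had −0.68, −0.28, −0.84, −0.057 and 0.057 in immunized discs, against 0.14, 0.36 and 0.30 in naive discs. Every immunized disc lay below the naive ones, and immunized replicates 1 and 3 lay lowest. The difference was −0.62 ± 0.20 (SE), or 0.649-fold, 95% interval −1.08 to −0.17, adjusted p = 0.0801, and 0.0720 to 0.192 when a single disc was left out.

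Rps4l (chromosome 6, 148354656 to 148355596) had −0.24, 0.42, −0.61, −0.14 and −1.06 in immunized discs, against 0.14, 0.20 and 0.34 in naive discs. Immunized replicate 2 was above all naive discs and the other immunized discs were below them. The difference was −0.55 ± 0.28 (SE), adjusted p = 0.208, and without immunized replicate 2 it was −0.74, adjusted p = 0.0479. The cartilage marker mean stood in a like order, at −0.41, 0.31, −0.87, −0.23 and −0.60 in immunized discs, against 0.37, 0.60 and 0.62 in naive discs. Nucleus pulposus markers averaged −0.15, 0.23, −0.44, −0.45 and −0.79 in immunized discs, against 0.43, 0.39 and 0.47 in naive discs. Immunized replicate 2 was the highest immunized disc in Rps4l and in both marker means, though both means there lay below all naive discs. Rpl39l had another order. Immunized replicate 3 was its lowest disc, as in the cartilage mean. Its highest immunized disc was replicate 5, at 0.057, where the marker means were −0.60 and −0.79. The part of these cells in the Rps4l and Rpl39l values was not tested, and in pooled tissue fewer cells of a type and less RNA per cell cannot be told apart.

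Rps27l, a relative of Rps27 that p53 induces (chromosome 9, 66944624 to 66949522), had 0.016, −0.04, 0.06, 0.079 and 0.075 in immunized discs, against −0.046, −0.12 and −0.099 in naive discs. Its groups did not overlap, with immunized replicate 2 next to naive replicate 1, and the difference was 0.13 ± 0.067 (SE), adjusted p = 0.234. Rps27l was thus positive where Rps27 was negative; the difference between the 2 paralogs was not tested.

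Rpl3l (chromosome 17, 24727826 to 24736143) had −0.41, 0.25, −0.79, 0.45 and 0.11 in immunized discs, against −0.87, 0.51 and −0.11 in naive discs. Its values ran through a wide range in both groups, and the difference was 0.081 ± 0.35 (SE), adjusted p = 0.895, with a sign that turned with array weights, quantile normalization, the replicate block and some left-out discs. The mean of 12 skeletal muscle markers was −0.19, 0.18, −0.30, 0.26 and −0.023 in immunized discs, against −0.50, 0.25 and 0.053 in naive discs. Counted from the lowest array, Rpl3l ranked 3, 6, 2, 7 and 5 in immunized and 1, 8 and 4 in naive discs, and the muscle mean ranked 3, 6, 2, 8 and 4 in immunized and 1, 7 and 5 in naive discs. The 2 orders are set side by side as a description of 8 arrays.

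**Figure D4:**
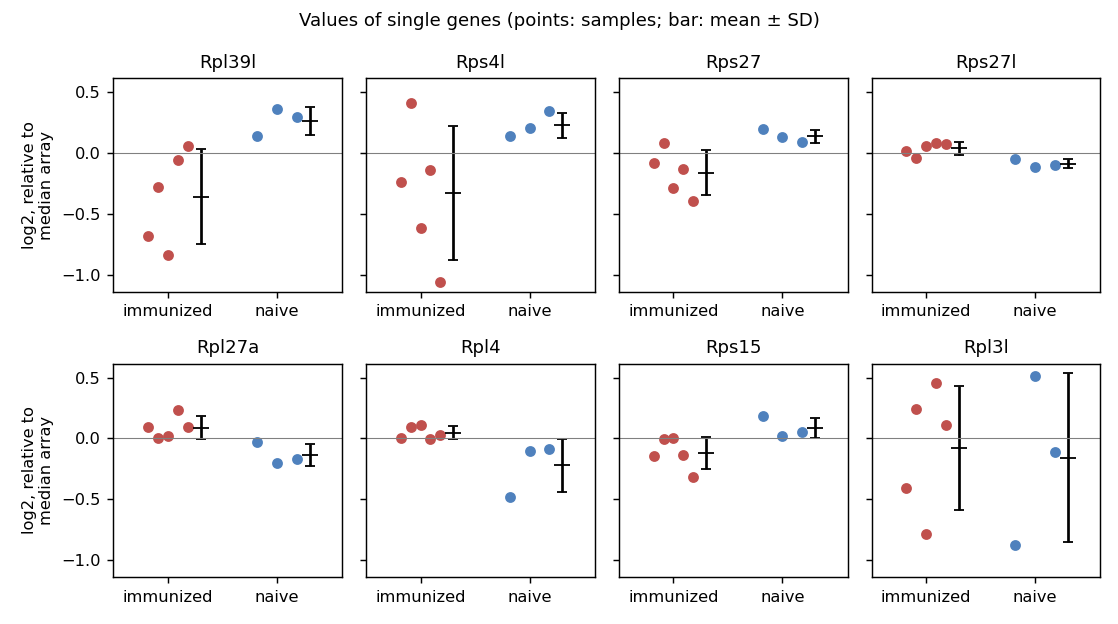
Values of 8 ribosomal protein genes in the 5 immunized discs (left in each panel) and the 3 naive discs (right), as log2 relative to the gene's median array; points are samples, and bars show the mean and SD of each group. Rps4l and Rpl3l spread most within the immunized group, followed by Rpl39l, and Rpl3l alone of these spreads widely among the naive discs too.

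Of the 46 genes, 23 rested on 1 probe set and 23 on several, up to 6, and the probe sets of a gene often differed. Tested singly over 45037 probe sets, 0 of the 100 members passed, against 6.19% of all, and 5 had an adjusted p under 0.1, against 15.5%. Before adjustment 10 had a p under 0.05, against 27.6%, of which 6 were higher and 4 lower, against 12.5% and 15.1% of all probe sets. The groups did not overlap in 18, against 20.4%, with 9 above and 9 below, against 9.01% and 11.4%. Opposite signs occurred in 12 of the 23 genes with several, and their differences spanned more than 0.3 in 8. A difference above 0.25 in size was found in 5 of the 78 probe sets in the range of 8 or more, or 6.41%, against 42.1% of all probe sets in that range. In the range of 4 to 8 it was found in 8 of 21, or 38.1%, against 37.2%. Of 11 genes measured in both ranges, the larger difference was in the lower range in 9. Ribosomal protein genes have many processed pseudogenes. Affymetrix gives the suffix _x_at to probe sets with probes that may also hybridize to other sequences. Of 40 such member probe sets 1 exceeded 0.25, or 2.5%. With the suffix _a_at it was 1 of 26, or 3.85%. With the plain suffix it was 10 of 31, or 32.3%, against 36.3% of all probe sets. Of those 31, 16 were in the range of 4 to 8, where 7 exceeded it, and 14 in the range of 8 or more, where 3 did. The part of hybridization to other sequences in these shares was not tested.

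The probe sets of Rps24 and Rps10 spanned the widest ranges. Rps10 is a protein of the small subunit's head. Its probe set 1436384_at had 0.13, −0.059, 0.059, 0.26 and 0.45 in immunized discs, against −0.59, −0.096 and −0.32 in naive discs, apart in every disc. The difference was 0.50 ± 0.14 (SE), adjusted p = 0.0692, while its other 5 probe sets gave −0.20 to −0.081.

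Rpl35, which sits at the peptide exit, had 1 such probe set, 1454833_at, with 0.072, 0.19, −0.036, 0.036 and 0.26 in immunized discs, against −0.53, −0.19 and −0.13 in naive discs. These groups did not overlap, with a difference of 0.39 ± 0.12 (SE), adjusted p = 0.0758, and the other 5 probe sets gave −0.023 to −0.00046. For Rps24, 1455195_at gave 0.40 ± 0.12, adjusted p = 0.0809, and 1436500_at gave −0.31 ± 0.13, adjusted p = 0.148, with the others at 0.077 to 0.14. For Rpl27a, 1437729_at gave 0.40 ± 0.12, adjusted p = 0.0761, and the other 0.048. Which transcript form each of these probe sets reads was not examined here.

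Rpl22, a large-subunit protein that also binds RNA outside the ribosome, differed the other way on 1448398_s_at, with −0.18, 0.31, −0.42, −0.25 and −0.27 in immunized discs, against 0.18, 0.32 and 0.31 in naive discs. Immunized replicate 2 lay among the naive discs, and the difference was −0.43 ± 0.15 (SE), adjusted p = 0.115, with 0.070 and 0.088 on the other probe sets. On 1426958_at, Rps9 had 0.98 in immunized replicate 5 and −0.21 to 0.18 in the other immunized discs, against −0.33 to −0.029 in naive discs. Immunized replicate 5 stood far above the rest, and the difference was 0.43 ± 0.24, adjusted p = 0.274.

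**Figure D5:**
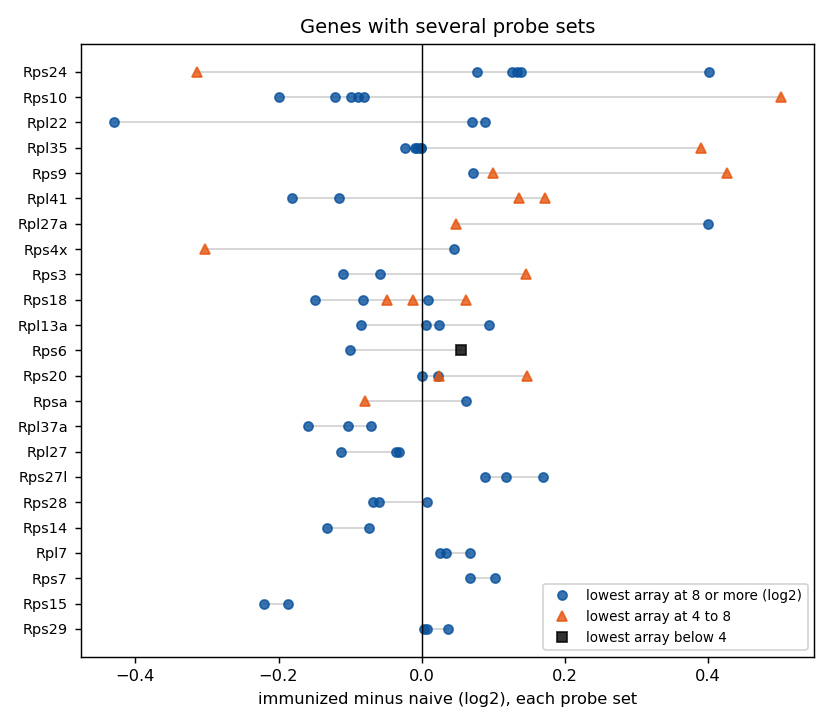
Difference of each probe set (log2 immunized minus naive, n = 5 and 3) for the 23 ribosomal protein genes with several probe sets, with the range of the probe set's lowest array shown by the symbol. Rps24, Rps10, Rpl22 and Rpl35 span the widest, each through 1 or 2 probe sets that stand away from the rest.

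The 110 probe sets that name a ribosomal protein gene together with other genes gave a like picture. Of these, 2 passed the test, or 1.82% against 6.19% of all probe sets; 1 was higher and 1 lower, as were 3.3% and 2.89% of all. Their median difference was 0.0017, the median size 0.0589 and the range −0.46 to 0.51, and 6 exceeded 0.25. These values cannot be given to a single gene.

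Other genes of the translation machinery were set beside the members. Ribosomal proteins whose symbols fall outside the rule, 5 genes, had 0 calls, against 9.14% of all genes, and a median of 0.033. Of these, Rps3a1, a small-subunit protein, was at 0.033, a sign that turned with array weights and without naive replicate 1. Rpl7l1, a relative of Rpl7, was at 0.046. Among 76 mitochondrial ribosomal proteins, which are a separate set for translation in mitochondria, 3 rose and 1 fell, or 5.26% against 9.14% of all genes, with a median of −0.011. They were Mrpl18 at 0.80 ± 0.16 (SE), adjusted p = 0.0268, Mrpl32 at 0.52 ± 0.12, adjusted p = 0.0333, Mrps22 at 0.47 ± 0.098, adjusted p = 0.0288, and Mrpl4 at −0.34 ± 0.086, adjusted p = 0.0454. None of the 4 calls was kept without immunized replicate 1 or 5, without naive replicate 2 or 3, or with a trended and robust fit.

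Of 29 ribosome assembly genes, 3 rose and 0 fell, or 10.3% against 9.14% of all genes, with a median of 0.19 and 20 of 29 positive. Nop58, a core protein of the particles that methylate ribosomal RNA, had 0.54, 0.15, 0.57, −0.15 and 0.48 in immunized discs, against −2.91, −1.70 and −1.35 in naive discs. The groups were far apart, and the difference was 2.30 ± 0.33 (SE), adjusted p = 0.0126. Its partner Nop56 differed by 0.37 ± 0.092, adjusted p = 0.0438, and nucleolin (Ncl), an abundant nucleolar protein, by 0.65 ± 0.14, adjusted p = 0.0322. Singly, 6 of the 29 genes lay above the naive range and 3 below, or 31.0% against 23.4% of all genes. Nop58, with the largest difference of the 29, is part of the list mean. The list averaged 0.041, 0.022, 0.090, −0.0078 and 0.079 in immunized discs, against −0.30, −0.14 and −0.10 in naive discs, which did not overlap. Of 20 cell cycle markers 1, or 5%, rose, against 4.46% of all genes. They averaged −0.31 to 0.76 in immunized discs and −0.39 to 0.18 in naive discs. Their part in the values of the assembly genes was not tested.

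Genes that feed or control translation showed single calls: 2 of 33 initiation factors (6.06%), 1 of 14 regulators (7.14%), 1 of 6 kinase genes (16.7%) and 1 of 11 elongation factors and other TOP genes (9.09%), against 9.14% of all genes. Among 33 initiation factors, Eif3e, a subunit of the factor that binds the small subunit, rose by 0.33 ± 0.077 (SE), adjusted p = 0.0364. Eif4b, a helper of the helicase that unwinds messages, fell, with −0.34 ± 0.083, adjusted p = 0.0402. Of 14 regulators of mTORC1 and of TOP messages, Tsc2, an inhibitor of mTORC1, fell: it had −0.057, −0.016, −0.21, 0.016 and −0.12 in immunized discs, against 0.47, 0.56 and 0.37 in naive discs, which lie well above. The difference was −0.54 ± 0.082, adjusted p = 0.0146, while its partner Tsc1 differed by −0.20 ± 0.068, adjusted p = 0.0929. Of 6 genes for kinases of the Rps6k family, Rps6ka3 (a RSK kinase) rose, by 0.50 ± 0.085, adjusted p = 0.0195. Among 11 elongation factors and other genes with TOP tracts, nucleophosmin (Npm1) rose by 0.73 ± 0.19, adjusted p = 0.0459, while the elongation factor Eef2 had a difference of −0.16 ± 0.076, adjusted p = 0.195.

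These 8 calls outside the mitochondrial list depended on single discs and on the fit. All 8 were kept without immunized replicate 2, while 0 were kept without naive replicate 2, a fit that called 21 genes in all; without naive replicate 1 or 3 the number was 4 or 2. Without immunized replicates 1, 3, 4 and 5 it was 2, 3, 4 and 3. Quantile normalization kept 5 of the 8, leaving out _x_at probe sets 6, and the trended and robust fit 3 (Nop58, Rps6ka3 and Eif4b), although it called 1619 genes in all. The cause was not tested.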

How the data were processed

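RNA of pooled lumbar discs was measured on Affymetrix arrays, 5 immunized and 3 naive samples. The authors deposited 1 table of log2 values made by RMA, per the submitters' processing notes; no version is named there. That each probe set was centred on its median over the 8 arrays was found from the deposited values, and log base 2 is taken from RMA. Arrays hold no counts, so their number limits the precision. The labels name separate mice, apart from the joined sample numbers.

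Of 45101 probe sets, 64 controls were left out, and 45037 remained, of which 34945 named 1 gene, 932 several and 9160 none, and 110 that name a ribosomal protein gene with others were kept apart. Symbols came from the platform annotation and were checked against RefSeq. A gene is the mean of its probe sets. limma 3.58.1 (lmFit, eBayes; R 4.3.3) compared immunized with naive samples, with Benjamini-Hochberg adjustment over 18193 genes and a threshold of 0.05; probe sets were also tested singly. The steps were tested on simulated data, with 50 genes changed at each size and drawn from all 18193. They called 2% of log2 changes of 0.3, 22% of 0.5, 84% of 1 and 100% of 2. The range of each probe set's lowest array was read from the spacing of its printed digits, leaving out values under 0.001 in size.

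The members and lists were chosen with earlier results of these data known. Named genes are members past the threshold, the 8 largest differences in each direction among members whose groups do not overlap, a fixed set of well-known members, and up to 3 per list by size of the moderated statistic. Rps4l, Rps25, Rps9, Rpl14, Rps16, Rpl37, Rpl39, the single probe sets, genes named only for their SD, Larp1 and the mitochondrial genes were named after their values were seen. Sensitivity was examined with another normalization, centring, weights, probe-set filters, thresholds, a replicate block and left-out samples.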

Additional observations from a re-analysis of the deposited data

Results flagged for a closer look

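Each of 64 genes, the 46 members and genes of the translation lists, was examined for a disc far from the others among the 5 immunized samples, and 2 were found, where chance gives about 1 in 20 groups. Rpl6, a large-subunit protein, had 0.145 in immunized replicate 3, against −0.033 to 0.014 in the other 4 immunized discs; the gap was 0.739 of the group's range, above Dixon's critical value of 0.710. Rplp0 had −0.098 in immunized replicate 2, against −0.0045 to 0.031 in the other 4, a gap of 0.726 of the range. Both deviations are small on the log2 scale.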

How the results depend on the processing

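The count of 0 members called held in every alternative run except these. With array weights, from 0.273 for naive replicate 1 to 3.98 for immunized replicate 1, 3 members were called higher (Rpl14, Rpl27a and Rps25) and 2 lower (Rpl39l and Rps27), among 5900 genes in all. At an adjusted p under 0.1, 0 were called higher and 1 lower. Leaving out 1 sample gave 0 members called higher each time and 0 to 2 lower, the 2 being Rps27 and Rps4l without immunized replicate 2, when 3003 genes were called in all. The median difference of the members, −0.024, was −0.0095 with arrays centred on their medians, −0.046 with the highest-range probe sets only, −0.0087 without _x_at probe sets, −0.0078 without _x_at and _s_at probe sets, −0.040 without the 3 samples high in erythroid markers (immunized replicates 3 and 5 and naive replicate 1), and −0.055 to −0.011 when 1 sample was left out. Without those 3 samples 17 members (37.0%), against 9, did not overlap, with 43.5% of all genes at those group sizes; when 1 sample was left out, 9 to 13 members (19.6% to 28.3%) did not, with 24.4% to 34.4% of all genes. The median of all genes stayed between −0.044 and −0.021.

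With the replicate number as a block, 0 members and 7 genes in all were called, and the members' median was −0.020. Replicates 4 and 5 exist only in the immunized group, so the difference in that fit rests on replicates 1 to 3. Samples with the same number had deviations that correlated at −0.0472, 0.243 and −0.101. Samples with different numbers were not compared, so these values cannot decide whether the numbers pair the samples. Without both samples with joined numbers 0 members and 0 genes in all were called. All genes called numbered 910 with quantile normalization, 374, 21 and 176 without naive replicates 1 to 3, and 148, 3003, 758, 868 and 394 without immunized replicates 1 to 5.

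Leaving out naive replicate 1 moved Rplp0 to −0.012, Rps4x to −0.022, Rps19 to −0.073, Rps24 to 0.047 and the called Npm1 to 0.45; without naive replicate 3 Rpl11 was −0.071, and without immunized replicate 5 Rps9 was 0.13. Signs turned in genes near 0, and the cause was not tested. Rpl3l was −0.43 with array weights, −0.076 with quantile normalization, −0.16 with the block, −0.10 without the 3 erythroid-high samples and −0.28 to 0.42 with 1 sample left out. Rps16 was 0.050 with array weights and −0.22 to 0.065 with 1 sample left out, and Rps4x 0.046 with the highest-range probe sets and without _x_at or _s_at probe sets. Rps6 was 0.021 with the block, 5.89e-05 without the joined samples and −0.088 to 0.015 with 1 sample left out. Rpsa was 0.0092 with array weights, 0.0053 with arrays centred, 0.062 with the highest-range probe sets, 0.0071 with quantile normalization, 0.0020 without the joined samples and −0.025 to 0.0067 with 1 sample left out. Rps3a1 was −0.0012 with array weights, −0.0056 without the 3 samples and −0.017 to 0.074 with 1 sample left out; Rsl24d1 ranged from −0.030 to 0.22 with 1 sample left out.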
